A study of Mus musculus with 12 samples.

Results

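Dbp, Tef and Hlf are the proline and acidic amino acid-rich (PAR) basic leucine zipper factors of the circadian clock output, and Nfil3 encodes the repressor that binds the same DNA element. These 4 genes were taken by their symbols from a table of estimated counts, in which each stands on 1 row among 21713 symbols that stand on a single row, and all 4 passed the filter on low counts. They were chosen by name with their levels and fold changes in the same genotype comparisons already known. Their differences between genotypes are therefore given as a description, and no p-value of a single member is printed. Counts of members past a threshold stand beside those over all genes, and nothing is read from them. Poly(A) RNA came from whole cortex of adult mice of 3 Tet1 genotypes, HxD, KO and WT, with 4 libraries each. Tet1 encodes a dioxygenase that oxidises 5-methylcytosine. TET enzymes bind iron through a stretch that goes by the same letters, HxD. The labels name no other allele, treatment, strain or sex and no age beyond adult, and do not say whether each library is 1 animal. P-values therefore measure the spread between these libraries, which may be technical. No source used here gives the time of day at which tissue was taken.

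The PAR factors are read as the hands of the clock. CLOCK and BMAL1 drive their genes through E-boxes, and the proteins then activate genes that carry a D-box. NFIL3, also called E4BP4, occupies the D-box as a repressor, and in liver the nuclear receptor REV-ERBα holds its gene down, so that NFIL3 runs in antiphase to DBP. In the brain the PAR factors control pyridoxal kinase, which makes the cofactor for neurotransmitter synthesis, and mice lacking the whole PAR family are prone to seizures.

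Facts of the table bear on how far a level can be read. Totals were 7767787 to 10347432 in HxD, 5791642 to 9535409 in KO and 8310783 to 10915574 in WT, so KO held the shallowest libraries. Gapdh was listed at 0 in all 12 libraries and Actb jumped by genotype, so a row can hold values that are no level of the gene. None of the 4 genes described here was at 0 in any library, and within a genotype the highest library was 1.24 to 2.10 times the lowest. Whether their rows carry a fault that goes with genotype was not tested. Tet1 itself was listed at 0 in all KO and WT libraries and at 1, 0, 63 and 67 counts in HxD 1 to 4, so it does not check the labels. Tet2 stood at 41.0 ± 19.2 CPM in HxD, 36.9 ± 10.9 in KO and 37.9 ± 4.78 in WT (SD, n = 4 each), and Tet3 was listed at 0 throughout. Cortical neuron markers were present, with 8 of 8 excitatory genes tested and summed levels of 2488 to 3597 CPM in HxD, 2482 to 2958 in KO and 2825 to 4004 in WT. Some libraries stood apart from others of their genotype. WT 1, WT 3, HxD 1 and HxD 3 held less Pvalb and more Gap43 RNA than the other WT and HxD libraries, and values without these 4 libraries are given where they move a result. Striatal markers summed to 1123 CPM in HxD 3 against 256.7 to 696 in the other HxD libraries, and choroid plexus markers reached 271.5 CPM in HxD 1 against 2.93 to 34.1 in the others of HxD.

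Per kilobase of the longest GENCODE transcript, the PAR factors stood far above the repressor in this tissue. In KO, Dbp at 114.6 ± 14.7 CPM per kb lay above Hlf at 73.7 ± 7.62, and Tef and Nfil3 stood at 22.8 ± 4.00 and 8.57 ± 1.78. The same measure put Dbp at 58.7 ± 13.9 and Hlf at 49.3 ± 16.6 in HxD, a difference within their spread, with Tef at 19.3 ± 4.28 and Nfil3 at 7.54 ± 2.11. In WT, Dbp stood at 61.1 ± 18.4 and Hlf at 58.4 ± 14.5 CPM per kb, again within their spread, followed by Tef at 20.8 ± 2.60 and Nfil3 at 6.94 ± 0.891 (SD, n = 4 in each genotype). Transcript lengths were 1837 bases for Dbp, 4403 for Tef, 5642 for Hlf and 2026 for Nfil3. Which isoforms the cortex uses was not measured, so the order rests on these lengths.

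Dbp was the member whose KO libraries lay apart from both other genotypes. It encodes the D-box activator whose RNA has a wide daily swing in many mouse tissues. Its level was 140.2, 106.1, 77.6 and 107.7 CPM in HxD 1 to 4, 190.8, 244.6, 219.9 and 187.1 CPM in KO 1 to 4, and 86.1, 124.7, 83.9 and 154.5 CPM in WT 1 to 4. Every KO library lay above every HxD and every WT library, while HxD and WT overlapped over most of their range. The mean was 210.6 ± 27.0 CPM in KO against 112.3 ± 33.8 in WT (SD, n = 4 each), a log2 fold change of 0.91 ± 0.22 (SE). KO against HxD, at 107.9 ± 25.6 CPM, gave 0.96 ± 0.22, and HxD against WT gave -0.06 ± 0.22. KO is the group in both of these gaps, so they are not independent of each other. Without WT 1, WT 3, HxD 1 and HxD 3 the KO against WT value was 0.59 and the KO against HxD value 0.98.

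The Dbp gene overlaps Sphk2, a sphingosine kinase gene, in RefSeq, and the counting is not stated to use strand, so reads in the shared stretch cannot be told apart. Sphk2 stood at 18.8 ± 3.99 CPM in HxD, 20.3 ± 7.57 in KO and 13.9 ± 9.06 in WT (SD, n = 4 each). Its libraries overlapped between all genotypes, with a log2 fold change of 0.54 ± 0.47 (SE) in KO against WT and 0.11 ± 0.46 in KO against HxD. Sphk2 was singled out after its values were seen. No RefSeq gene overlaps Tef, Hlf or Nfil3 in the assembly used.

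**Figure D1:**
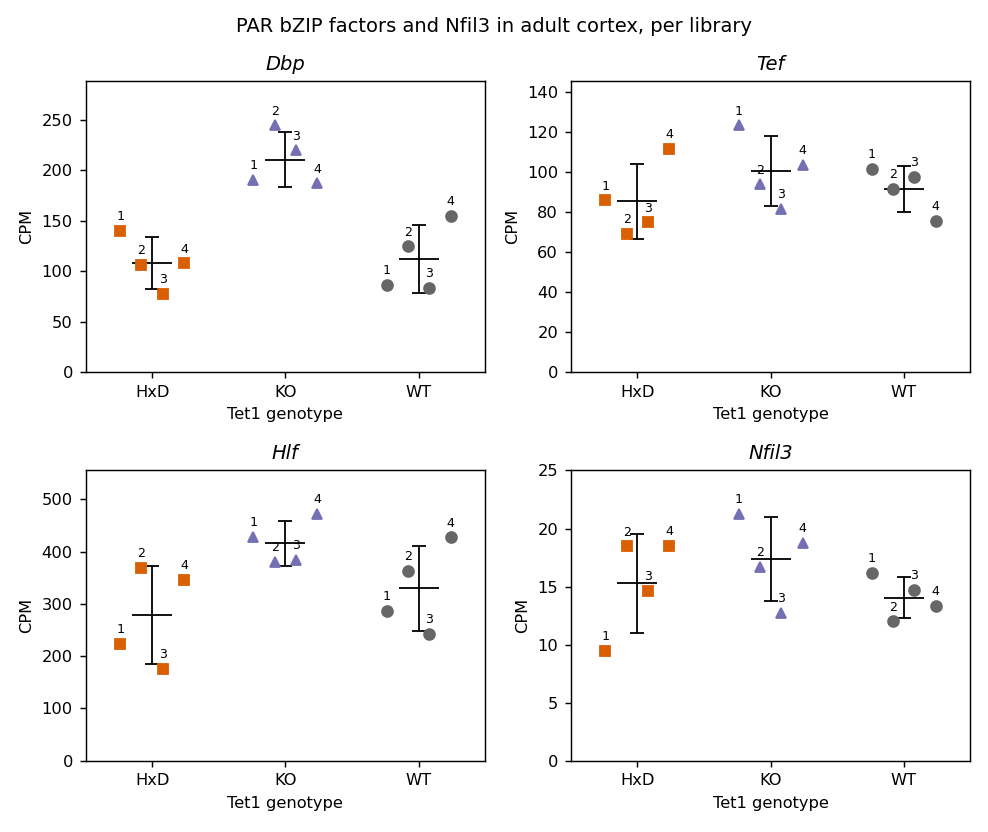
CPM (vertical axes, each from 0) of Dbp, Tef, Hlf and Nfil3 in HxD, KO and WT cortex, with 1 point per library labelled by its number and black bars for the mean ± SD of 4 libraries. For Dbp the KO libraries, from 187.1 to 244.6 CPM, all sit above the highest WT library at 154.5 CPM.

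Hlf is a PAR factor also known from leukaemia fusions, and its HxD and WT libraries spread widely. The levels were 223.9, 368.1, 174.9 and 345.4 CPM in HxD 1 to 4, 427.5, 379.8, 383.9 and 471.5 CPM in KO 1 to 4, and 286.6, 362.7, 242.5 and 426.9 CPM in WT 1 to 4. Libraries 1 and 3 were the low ones in both HxD and WT, and KO showed no such pair. KO lay above all HxD libraries, though KO 2 exceeded HxD 2 by little, and KO overlapped WT. The mean was 415.7 ± 43.0 CPM in KO, 278.1 ± 93.5 in HxD and 329.7 ± 81.7 in WT (SD, n = 4 each). The log2 fold change was 0.58 ± 0.24 (SE) for KO against HxD, 0.33 ± 0.24 for KO against WT and -0.25 ± 0.24 for HxD against WT. Without WT 1, WT 3, HxD 1 and HxD 3, a set chosen after seeing the data, these values were 0.22, 0.07 and -0.15. Those 4 libraries held the lowest Hlf of their genotypes, so leaving them out was bound to bring HxD and WT closer to KO. Nothing is concluded from that shift.

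Tef, the PAR factor named for thyrotroph cells of the pituitary, had the smallest log2 fold change of the 4 genes in KO against WT. It stood at 85.7, 68.9, 74.7 and 111.4 CPM in HxD 1 to 4, at 123.1, 93.7, 81.5 and 103.2 CPM in KO 1 to 4 and at 101.3, 91.5, 97.6 and 75.4 CPM in WT 1 to 4. The libraries of all 3 genotypes overlapped. Its log2 fold change against WT was -0.10 ± 0.17 (SE) in HxD and 0.13 ± 0.17 in KO, and that of KO against HxD was 0.24 ± 0.17, on means of 85.2 ± 18.8 CPM in HxD, 100.4 ± 17.6 in KO and 91.4 ± 11.4 in WT (SD, n = 4 each).

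Nfil3, the D-box repressor, stood at 9.47, 18.5, 14.6 and 18.5 CPM in HxD 1 to 4, 21.2, 16.7, 12.7 and 18.8 CPM in KO 1 to 4 and 16.2, 12.0, 14.7 and 13.3 CPM in WT 1 to 4. The genotypes overlapped, and HxD 1 was the lowest of all libraries. These levels rest on 88 to 190 estimated counts per library, and counting error alone was 10.7% at the lowest. The log2 fold change against WT was 0.12 ± 0.24 (SE) in HxD and 0.30 ± 0.24 in KO, and that of KO against HxD was 0.18 ± 0.24, on means of 15.3 ± 4.27, 17.4 ± 3.61 and 14.1 ± 1.81 CPM in HxD, KO and WT (SD, n = 4 each). All 4 genes had a positive log2 fold change in KO against WT. The KO and WT libraries of Tef, Hlf and Nfil3 overlapped, so whether repressor and activators moved together or apart cannot be told. Without WT 1, WT 3, HxD 1 and HxD 3, the Nfil3 value against WT was 0.55 in HxD and 0.45 in KO, and KO against HxD gave -0.09.

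Over the whole table edgeR's quasi-likelihood test, at a Benjamini-Hochberg adjusted p below 0.05, called 0.898% of 11693 genes in HxD against WT, 0.487% higher and 0.411% lower. In KO against WT it called 0.154%, of which 0.0428% higher and 0.111% lower. KO against HxD gave 1.02%, with 0.445% higher and 0.573% lower. It called 0 of the 4 genes described here in each comparison, with 0, 1 and 2 of them at an unadjusted p below 0.05 in the same order of comparisons. Over all tested genes 4.04% in HxD against WT, 9.48% in KO against WT and 11.6% in KO against HxD were below that value. The limma-voom fit also called 0 of 4 in each. The DESeq2 Wald test called Dbp in KO against WT and in KO against HxD, and no member in HxD against WT. Over the whole table DESeq2 called 288 of 11693 genes in KO against WT, 397 in KO against HxD and 172 in HxD against WT. Libraries lay wholly apart and higher in KO for 1 of 4 against WT, where 3.25% of all tested genes did so, and for 2 of 4 against HxD, where 3.97% did. They lay wholly apart and lower in KO for 0 of 4, where 3.95% of genes did so against WT and 3.62% against HxD. Between HxD and WT they did so for 0 of 4, with 1.76% of all genes higher and 1.72% lower. Nothing is read from these counts, since the same comparisons led to the choice of the genes. In bulk tissue, more RNA per cell and more cells that hold a gene cannot be told apart.

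The genes also differed in how they balanced within a library, a measure that the scaling between libraries does not touch. The ratio of Dbp to Hlf, both as CPM per kb, was 1.37, 1.98, 1.76 and 1.22 in KO 1 to 4 and 0.923, 1.06, 1.06 and 1.11 in WT 1 to 4, and these libraries did not overlap. HxD spanned both, at 1.92, 0.885, 1.36 and 0.958 in HxD 1 to 4. The ratio of Dbp to Tef overlapped between KO (3.71 to 6.47) and WT (2.04 to 4.91). So did that of Dbp to Nfil3, at 9.91 to 19.05 in KO and 5.86 to 12.78 in WT. These ratios hold Dbp, so a gap in them is not independent of that of Dbp. Dbp made up 54.2% ± 5.65 of the summed PAR level per kb in KO, 46.3% ± 7.25 in HxD and 43.0% ± 3.79 in WT (SD, n = 4 each). Tef made up 10.8% ± 2.01 of it in KO, 15.5% ± 3.35 in HxD and 15.6% ± 4.85 in WT.

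The summed PAR level was close to constant across KO. It was 207.6, 221.8, 206.2 and 208.8 CPM per kb in KO 1 to 4, 135.5, 138.6, 90.2 and 145.1 in HxD 1 to 4 and 120.7, 153.0, 110.8 and 176.9 in WT 1 to 4. The KO libraries lay above all others. Dbp made up 48.76% to 60.05% of the sum in the KO libraries, so this gap is not independent of that of Dbp. The ratio of that sum to Nfil3 did not separate the genotypes, at 25.5 ± 5.69 in KO, 18.1 ± 7.37 in HxD and 20.8 ± 6.47 in WT (SD, n = 4 each). HxD 1 was the HxD library that departed here, with a ratio of 29.0 against 12.5 to 15.9 in the other HxD libraries, on the highest Dbp and the lowest Nfil3 of that genotype.

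**Figure D2:**
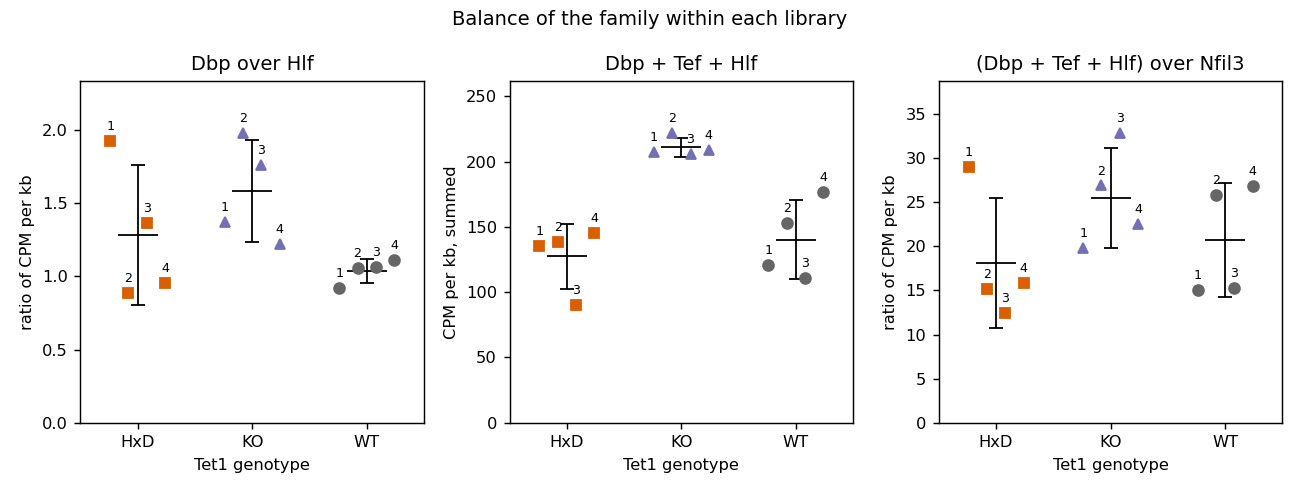
Ratio of Dbp to Hlf, summed level of Dbp, Tef and Hlf in CPM per kb, and ratio of that sum to Nfil3 (vertical axes from 0) for HxD, KO and WT, with 1 point per library labelled by its number and bars for the mean ± SD of 4 libraries. The KO sums, 206.2 to 221.8 CPM per kb, lie above the other libraries, while the ratios to Nfil3 overlap.

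Promoter windows from RefSeq, build GRCm38.p6, were searched for the elements of this circuit, because the family is wired by them. A window runs from 250 bases before to 50 bases after a start site, and 5 windows matched the 4 genes, with 2 for Tef. The letters searched on both strands were the E-box CACGTG, the related CACGTT, the D-box as TTATGTAA or TTACGTAA, and the cyclic AMP response element TGACGTCA. Both Tef windows hold an E-box, which starts 127 bases before the start site in the first and 138 bases before it in the second. Hlf holds TGACGTCA, whose first base is 9 bases before its start site. No match overlapped another. Of all 32851 windows, 7.15% hold CACGTG, 4.68% CACGTT, 0.938% TTATGTAA, 0.119% TTACGTAA and 1.79% TGACGTCA, and of 22 windows of core clock genes 4 hold CACGTG. The Dbp and Nfil3 windows hold none of these letters, which says nothing of sites elsewhere in the genes. A match is a description of the letters and not a site in use. Dbp is shown as the gene with the highest KO level relative to WT, and Tef and Hlf for their matches, which stand in capitals. The windows are chr7:45704997-45705296 on the plus strand for Dbp, chr15:81811164-81811463 on the plus strand for the second Tef window and chr11:90390868-90391167 on the minus strand for Hlf, each 5′ to 3′.
Dbp: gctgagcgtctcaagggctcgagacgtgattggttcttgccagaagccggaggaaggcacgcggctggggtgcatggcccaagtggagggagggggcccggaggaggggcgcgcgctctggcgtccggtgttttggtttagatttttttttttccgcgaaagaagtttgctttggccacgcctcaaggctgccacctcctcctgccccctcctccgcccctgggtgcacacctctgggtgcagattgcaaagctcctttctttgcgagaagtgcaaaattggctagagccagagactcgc
Tef: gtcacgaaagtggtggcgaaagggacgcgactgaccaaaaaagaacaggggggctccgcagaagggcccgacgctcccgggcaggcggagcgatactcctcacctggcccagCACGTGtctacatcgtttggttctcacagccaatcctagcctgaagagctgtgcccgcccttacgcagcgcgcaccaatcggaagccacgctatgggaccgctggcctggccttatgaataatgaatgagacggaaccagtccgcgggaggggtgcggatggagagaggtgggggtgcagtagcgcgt
Hlf: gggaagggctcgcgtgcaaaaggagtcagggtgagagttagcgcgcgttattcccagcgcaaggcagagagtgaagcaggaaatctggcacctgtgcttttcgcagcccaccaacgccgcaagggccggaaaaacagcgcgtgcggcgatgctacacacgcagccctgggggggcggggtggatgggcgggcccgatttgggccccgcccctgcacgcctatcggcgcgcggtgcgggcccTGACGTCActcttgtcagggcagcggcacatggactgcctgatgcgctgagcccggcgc

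The clock loop that drives the PAR genes was read from a list of 21 genes, of which 19 were matched by symbol and 16 tested. The gene of BMAL1, the E-box activator, was not matched by symbol, so it was not analysed here. No loop gene passed the test by edgeR. In KO against WT edgeR called 0 of 16 (4 at an unadjusted p below 0.05, 1 called by the DESeq2 Wald test and 0 by limma-voom), and in KO against HxD 0 of 16 (5 unadjusted, 3 by DESeq2 and 0 by limma-voom). HxD against WT gave 0 of 16 by each tool and 0 unadjusted. The unadjusted shares over all tested genes were the 9.48%, 11.6% and 4.04% given above. Of all tested genes DESeq2 called 288 in KO against WT, 397 in KO against HxD and 172 in HxD against WT. The list's median log2 fold change was 0.25 in KO against WT, with 12 of 16 above, 0.26 in KO against HxD, with 11 above, and -0.01 in HxD against WT, with 7 above. Over all tested genes that median was 0.006, 0.002 and 0.007.

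Per1, a repressor of CLOCK and BMAL1, stood at 329.4, 236.2, 168.3 and 185.5 CPM in KO 1 to 4 and at 153.0, 150.1, 67.9 and 114.6 CPM in WT 1 to 4. Its libraries did not overlap, with a log2 fold change of 0.92 ± 0.29 (SE) and an edgeR adjusted p of 0.327. Against HxD, at 98.1 ± 21.8 CPM (SD, n = 4), the value for Per1 was 1.23 ± 0.29 (adjusted p = 0.113). Nr1d2, which encodes REV-ERBβ, stood at 203.3 ± 11.1 CPM in KO, 144.3 ± 32.0 in HxD and 148.0 ± 18.4 in WT. Nr1d1, which encodes REV-ERBα, stood at 220.8 ± 24.6 CPM in KO, 151.1 ± 18.9 in HxD and 170.6 ± 43.9 in WT. Bhlhe41, an E-box repressor, stood at 94.7 ± 8.05 CPM in KO, 66.6 ± 5.15 in HxD and 63.3 ± 14.9 in WT. The edgeR adjusted p was 0.331 for Nr1d2, 0.544 for Nr1d1 and 0.199 for Bhlhe41 in KO against WT, and 0.237, 0.270 and 0.216 in KO against HxD. Ciart, a further repressor, stood at 26.6 ± 5.72 CPM in KO, 11.9 ± 2.88 in HxD and 10.2 ± 7.74 in WT, and WT 3 held only 7 counts of it (adjusted p = 0.534 in KO against WT).

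Among the other loop genes, Per2 had a log2 fold change of 0.16 ± 0.29 (SE) in KO against WT and -0.23 ± 0.29 in KO against HxD. Cry1, a late repressor, had 0.25 ± 0.22 and 0.22 ± 0.22, and Cry2 -0.07 ± 0.11 and -0.09 ± 0.11. Per3 had 0.36 ± 0.18 and 0.29 ± 0.18. Npas2, which pairs with BMAL1 in the forebrain, was on the other side, at 63.4 ± 8.84 CPM in KO, 71.9 ± 7.25 in HxD and 81.3 ± 12.8 in WT (SD, n = 4 each, adjusted p = 0.433 for KO against WT). In HxD against WT, Per1 had -0.31 ± 0.29 and Per2 0.40 ± 0.29.

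**Figure D3:**
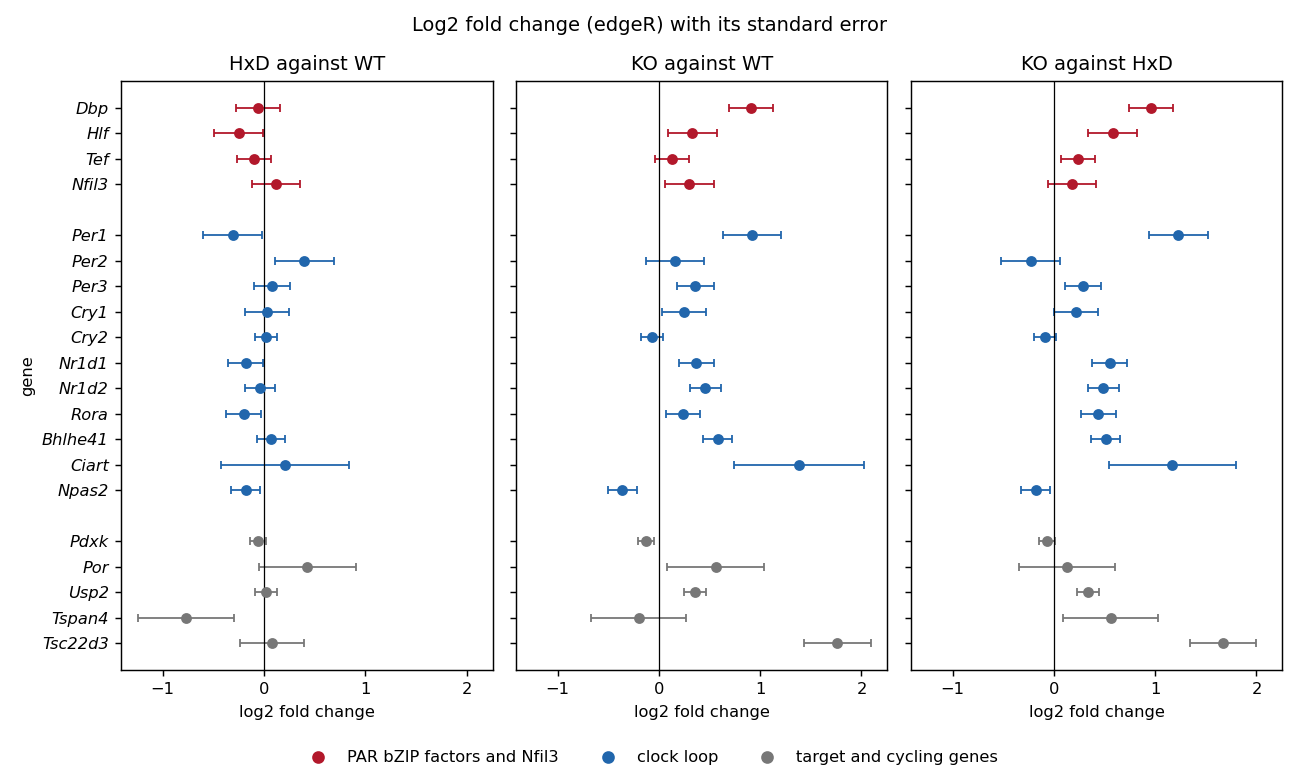
Log2 fold change from edgeR (horizontal axis) with its standard error for Dbp, Hlf, Tef and Nfil3, for genes of the clock loop and for target and cycling genes (vertical axis), with a panel for HxD against WT and a panel for KO against each of WT and HxD. Dbp at 0.91 and 0.96, Per1 at 0.92 and 1.23 and Tsc22d3 at 1.76 and 1.67 lie to the right in the KO panels, and Pdxk lies near 0 in each panel.

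Genes that PAR factors and NFIL3 are known to act on share 8 loop genes with the list above. Of 16 such genes all were matched, 4 were listed at 0 in all libraries and 9 were tested. The test by edgeR called 0 of 9 in each comparison. Unadjusted p-values below 0.05 numbered 2 in KO against WT and 4 in KO against HxD, all of loop genes, and 0 in HxD against WT. Over all tested genes the shares were 9.48%, 11.6% and 4.04%. The DESeq2 Wald test called 0 in KO against WT, 2 in KO against HxD and 0 in HxD against WT. Over all tested genes DESeq2 called 288, 397 and 172 in the same order. With limma-voom 0 of these target genes were called in each. The median log2 fold change was 0.36 in KO against WT, 0.29 in KO against HxD and -0.04 in HxD against WT. Over all tested genes it was 0.006, 0.002 and 0.007. Pdxk and Por were the only tested targets that are not loop genes, so these medians mostly repeat the loop list.

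Pdxk, the pyridoxal kinase gene that PAR factors control in brain, had overlapping groups. It stood at 277.2, 252.2, 321.3 and 272.3 CPM in HxD 1 to 4, 288.8, 250.5, 256.3 and 272.0 CPM in KO 1 to 4 and 280.3, 287.7, 317.6 and 281.2 CPM in WT 1 to 4. Its log2 fold change was -0.13 ± 0.08 (SE) in KO against WT (edgeR adjusted p = 0.689) and -0.07 ± 0.08 in KO against HxD (adjusted p = 0.808). Por, the electron donor of cytochrome P450 enzymes and a PAR target of liver, ranged from 34.3 to 118.9 CPM within KO and from 26.5 to 76.5 within WT. Its log2 fold change of 0.56 ± 0.48 (adjusted p = 0.792) was no larger than that spread. Alas1, an enzyme of haem synthesis, was listed at 0 in all libraries.

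Of 10 genes that cycle in most mouse tissues, 8 beside Dbp were tested. Per1, Per2, Per3, Nr1d1 and Nr1d2 stand on this list and on that of the clock loop. In KO against WT edgeR called 0, with 4 at an unadjusted p below 0.05 (9.48% of all tested genes), and DESeq2 called 1 and limma-voom 0. In KO against HxD edgeR called 1, with 5 unadjusted (11.6% of all tested genes), and DESeq2 called 3 and limma-voom 1. HxD against WT gave 0 by each tool and 0 unadjusted. Over the whole table DESeq2 called 288 genes in KO against WT and 397 in KO against HxD. The gene that passed edgeR in KO against HxD was Tsc22d3, known as GILZ, which glucocorticoids induce. It rose to 206.4, 173.3, 113.6 and 120.1 CPM in KO 1 to 4, against 61.9, 36.8, 29.4 and 64.2 CPM in HxD 1 to 4 (log2 fold change 1.67 ± 0.33 SE, edgeR adjusted p = 0.0397). Against WT, at 45.3 ± 14.9 CPM (SD, n = 4), the value was 1.76 ± 0.33 (adjusted p = 0.0940). The call was lost without WT 4 or any single HxD library, and without KO 1, KO 2 or KO 4. Usp2, a deubiquitinase, stood at 98.2 ± 10.7 CPM in KO, 77.7 ± 4.43 in HxD and 76.5 ± 10.2 in WT (adjusted p = 0.312 in KO against WT and 0.278 against HxD). Tspan4 had a log2 fold change of -0.20 ± 0.47 in KO against WT on 2.73 to 10.6 CPM per KO library.

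Glucocorticoid-induced genes had a higher summed level in every KO library than in any other, as Dbp did. Of 20, 19 were tested, and their summed level was 1811 to 2454 CPM in KO, 975.6 to 1444 in HxD and 959.5 to 1364 in WT. Their median log2 fold change was 0.77 in KO against WT, with 17 of 19 above, 0.84 in KO against HxD, with 16 above, and 0.18 in HxD against WT, with 15 above. This list and the other gene lists were chosen with earlier results of these data known. Their counts and p-values are a description, and nothing is read from them. The glucocorticoid list shares Per1 and Tsc22d3 with the clock lists. In KO against WT edgeR called 1 higher and 0 lower (11 of 19 at an unadjusted p below 0.05, against 9.48% of all tested genes), namely Cebpd at 22.5 ± 3.89 CPM in KO against 7.84 ± 1.45 in WT (SD, n = 4 each, adjusted p = 0.0453). In KO against HxD it called Tsc22d3 and Dusp1, and in HxD against WT Dusp1 alone, as lower. Dusp1, a phosphatase gene that also enters the summed level, was listed at 0 in all HxD libraries. It held 118 to 337 counts in WT and 361 to 1006 in KO. Actb jumped by genotype too, and whether the 0 of Dusp1 in HxD is a level of the gene was not tested. Cebpd encodes a relative of the PAR factors among basic leucine zipper proteins. In KO against WT the glucocorticoid list held no call when any single library other than WT 4 or HxD 1 was left out. Of 6 tested relatives edgeR called 1 in KO against WT, which is Cebpd again, with 3 at an unadjusted p below 0.05. Over all tested genes the shares were 0.154% and 9.48%. In KO against HxD it called 0 of the 6, with 4 unadjusted, beside 1.02% and 11.6% of all tested genes. All 6 relatives were above WT in KO, with a median log2 fold change of 0.41 beside 0.006 over all tested genes. Their part in the Dbp result was not tested.

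Summed marker levels of other cells overlapped between KO and WT for every list given here, which does not show that cell composition was alike. Astrocyte markers, 8 of 8 tested, summed to 3851 to 4167 CPM in KO, 3134 to 3974 in HxD and 3099 to 3972 in WT, with 7 of 8 above WT in KO. Their median log2 fold change was 0.23 in KO against WT and 0.21 in KO against HxD. Against HxD, 4 of 8 were at an unadjusted p below 0.05 by edgeR, beside 11.6% of all tested genes. Libraries lay wholly apart and higher in KO for 3 of 8, beside 3.97%. Oligodendrocyte markers, 7 of 8 tested, summed to 3041 to 3609 CPM in KO, 1367 to 4014 in HxD and 1883 to 4493 in WT. HxD 2 at 4014 and WT 4 at 4493 stood apart, with the other libraries at 1367 to 2168 in HxD and 1883 to 1956 in WT. WT 4 was also the WT library with the highest Dbp and Hlf. The 7 tested genes were above HxD in KO in 7 of 7 cases, with a median log2 fold change of 0.72, and above WT in 5 of 7, with 0.36. Striatal markers were lower in KO than in WT and than in HxD for 8 of 8 genes, with median log2 fold changes of -1.25 and -2.31. Libraries lay wholly apart and lower in KO for 2 of 8 against WT and 1 of 8 against HxD. Over all tested genes 3.95% and 3.62% did so. Striatal sums were 291.7 to 436.2 CPM in KO, 256.7 to 1123 in HxD and 400.5 to 670.3 in WT. GABAergic markers, 6 of 6 tested, summed to 1423 to 1537 CPM in KO, 1357 to 1720 in HxD and 1204 to 1503 in WT. Microglial markers summed to 371.0 to 456.4 CPM in KO, 384.8 to 482.1 in HxD and 410.0 to 467.5 in WT, with Csf1r at 0 throughout. Endothelial markers summed to 170.6 to 221.3 CPM in KO, 162.3 to 214.2 in HxD and 168.0 to 219.9 in WT, with Pecam1 at 0 throughout. Of 6 endothelial genes 4 were tested, with a median log2 fold change of 0.38 in KO against WT and 0.44 in KO against HxD (3 of 4 above in each). None of these genes passed edgeR in KO against WT, and no other defining marker of these lists was at 0. Their part in the levels of the PAR genes was not tested.

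Over the 12 libraries each gene was compared with 8138 others that held at least 20 counts in every library, by Pearson's r of log2(CPM + 0.5). These r are descriptions: the genes named are the extremes of many, and all libraries share the genotype groups. The genes most like Dbp were Rhbdd1 (r = 0.943, Spearman's rho 0.937), Tsc22d3 (0.920, rho 0.895), Pole4 (0.902, rho 0.944), Mt2 (0.897, rho 0.881) and Prcp (0.892, rho 0.846). Taken as deviations from the genotype means, their r with Dbp was 0.836, 0.698, 0.689, 0.715 and 0.749. Tsc22d3 and the metallothionein gene Mt2 are on the glucocorticoid list, and Mt2 stood at 198.4 ± 48.1 CPM in KO, 108.2 ± 39.8 in HxD and 105.4 ± 25.8 in WT (SD, n = 4 each). Bhlhe41 ranked 13th with 0.869 and Nr1d1 20th with 0.858. The lowest r with Dbp were those of Ppp1r13b (-0.928), the endothelial receptor gene Kdr (-0.915) and Ptpn9 (-0.907).

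Hlf was tied most tightly to genes that part libraries 1 and 3 of HxD and WT from the rest. Its closest gene was Pigz, with r = 0.985, rho 0.986, and 0.980 as deviations from genotype means. Pigz stood at 7.21, 19.6, 4.45 and 13.4 CPM in HxD 1 to 4, 21.6, 16.3, 20.9 and 24.6 CPM in KO 1 to 4 and 9.58, 15.8, 7.29 and 22.9 CPM in WT 1 to 4. The order of the libraries was thus nearly that of Hlf. Nudt4 (0.972), Golga7b (0.967), Cabyr (0.959) and Pvalb (0.956) followed, with 0.958, 0.976, 0.935 and 0.930 within genotypes. Pvalb, the parvalbumin gene of fast-spiking interneurons, ranged from 18.6 to 169.9 CPM in HxD, from 130.9 to 199.9 in KO and from 52.2 to 173.7 in WT. Gap43, a growth-associated protein of axons, ran opposite to Hlf (r = -0.975), as did Tmem35a (-0.957) and Krt9 (-0.956). Gap43 was highest in HxD 3, at 715.2 CPM, where Hlf was lowest.

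**Figure D4:**
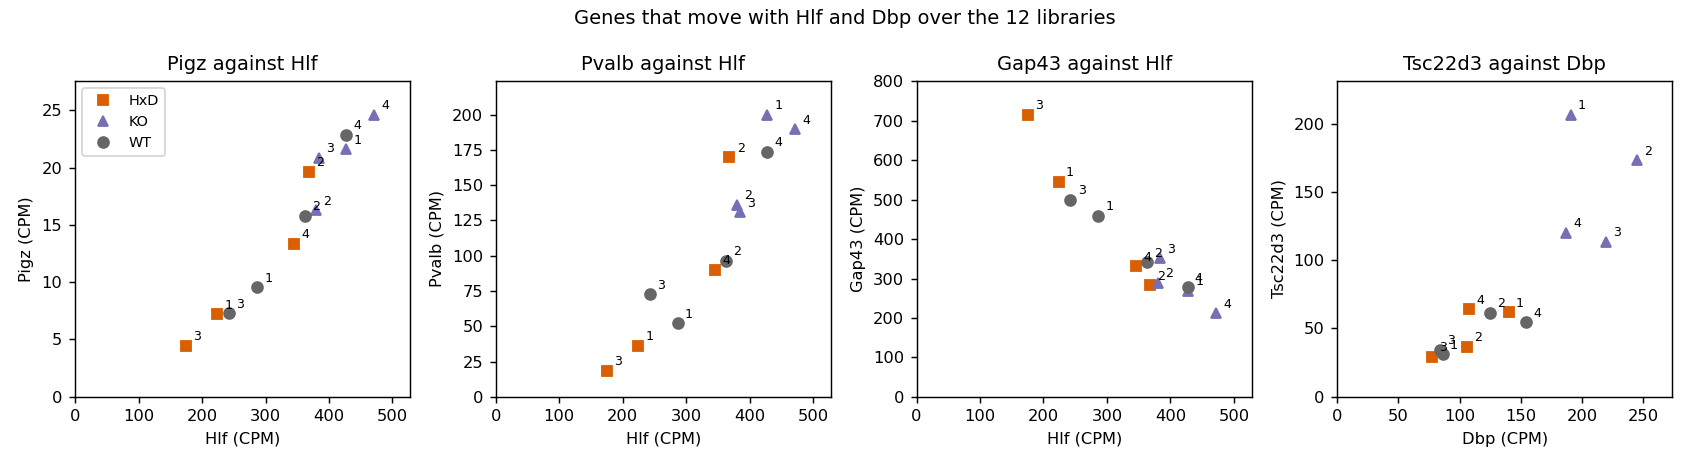
CPM of Pigz, Pvalb and Gap43 against Hlf, and of Tsc22d3 against Dbp (both axes from 0), with 1 point per library labelled by its number, for HxD (squares), KO (triangles) and WT (circles). Pigz and Pvalb climb with Hlf and Gap43 declines, with libraries 1 and 3 of HxD and WT at the low Hlf end, while KO 1 to 4 stand apart by Dbp at 187.1 CPM or more.

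Tef and Nfil3 had other neighbours. The genes most like Tef were Ndufaf7 (0.848), Zfp973 (0.835), the serum response factor gene Srf (0.833), the AP-1 gene Fosl2 (0.814) and Abca5 (0.810), and the lowest were Cd68 (-0.874), Rbx1 (-0.838) and Edc4 (-0.831). Those most like Nfil3 were Ethe1 (0.918), the selenium carrier gene Selenop (0.898), Cxxc1 (0.863), Acad12 (0.847) and Tubb6 (0.844), and the lowest were Tcta (-0.886), Pelp1 (-0.865) and Ccdc88b (-0.855). Cry1 ranked 13th for Nfil3 with 0.783. Among the 4 genes themselves, Dbp and Hlf had r = 0.695 (rho 0.755, and 0.497 within genotypes). Dbp had 0.173 with Tef and 0.056 with Nfil3, and -0.288 and -0.513 within genotypes. Tef and Nfil3 had 0.458, Hlf and Nfil3 0.438, and Tef and Hlf 0.266.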

How the data were processed

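Total RNA of whole cortex was column-purified, poly(A) RNA was captured with oligo d(T) and NEB reagents made the libraries, per the labels' protocols. The submitters' processing notes name, without role, the aligner STAR 2.7.1a, the assembler StringTie 2.2.3, SAMtools 1.9, Trim Galore 0.6.7, FastQC and the builds GRCm39 and mm10. No source used here gives the counting step or strand setting. The authors deposited 1 estimated count per gene symbol and library, not normalized, as whole numbers that sum to 5791642 to 10915574 per library. Totals limit counting error only. Of 21769 rows, 56 rows of 25 repeated symbols were left out.

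Groups follow the genotype in the titles. EdgeR 4.0.16 (R 4.3.3) with TMM factors and filterByExpr at a minimum count of 10 kept 11693 genes. All 12 libraries entered 1 quasi-likelihood fit with genotype as the only term and 9 residual degrees of freedom, tested two-sided with Benjamini-Hochberg adjustment over all tested genes at 0.05. CPM divides a count by the library's counts of tested genes times the TMM factor, and standard errors are the log2 fold change over the root of F. The scripts were tested on simulated data. Alternatives were other scalings, DESeq2 1.42.0, limma-voom (limma 3.58.1), no filter, a fit of only the 8 libraries at issue, a block for the replicate number, each library left out, and, chosen after seeing the data, WT 1, WT 3, HxD 1 and HxD 3 left out together.

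Named genes were the 4 members, 15 fixed clock and target genes, called genes and the 3 lowest p of each list, and the 5 highest and 3 lowest r per member. Genes from the rule that add nothing are not printed, and Sphk2, Actb and Gapdh were added after their values were seen. The members and lists were chosen with earlier results of these data known. The replicate numbers did not pair the libraries.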

Additional observations from a re-analysis of the deposited data

Results flagged for a closer look

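In 4 of 184 groups of 4 libraries tested, 1 library stood far from the other 3 by Dixon's 95% limit. Chance flags about 1 in 20 groups. None was a level of Dbp, Tef, Hlf or Nfil3. Bhlhe41 was high in WT 4, at 85.6 CPM against 55.3 to 56.9 in the other WT libraries. Nr1d1 was low in HxD 3, at 122.9 CPM against 158.7 to 163.0 in the other HxD libraries. Rasd1, on the glucocorticoid list, was low in KO 3, at 7.7 CPM against 12.3 to 13.2 in the other KO libraries. Tspan4 was high in HxD 1, at 5.71 CPM against 2.69 to 3.02 in the other HxD libraries. The causes were not tested.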

How the results depend on the processing

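No log2 fold change of Dbp, Tef, Hlf or Nfil3 that exceeded its standard error changed sign when 1 library was left out. With each library left out in turn, Dbp ranged from 0.79 to 1.1 in KO against WT, 0.83 to 1.11 in KO against HxD and -0.22 to 0.14 in HxD against WT. Hlf ranged from 0.21 to 0.48, 0.41 to 0.74 and -0.41 to -0.09, Tef from 0.02 to 0.22, 0.12 to 0.39 and -0.26 to -0.01, and Nfil3 from 0.19 to 0.43, 0.008 to 0.31 and 0.01 to 0.29 in the same comparisons. Genes called ranged from 12 to 35 in KO against WT, the 35 without WT 4, from 97 to 137 in KO against HxD and from 90 to 109 in HxD against WT, beside 18, 119 and 105 with all libraries. Clock loop genes called ranged from 0 to 1 in both KO comparisons, targets and cycling genes from 0 to 1 in KO against HxD, and glucocorticoid-induced genes from 0 to 1 in KO against WT and 1 to 2 in KO against HxD.

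The DESeq2 Wald test called 288 genes in KO against WT, 397 in KO against HxD and 172 in HxD against WT. Of lists it called 1 and 3 clock loop genes, 1 and 3 cycling genes, 7 and 8 glucocorticoid-induced genes and 1 and 1 of the PAR factors and Nfil3 in KO against WT and KO against HxD, and 2 targets in KO against HxD. With limma-voom 0 genes were called in KO against WT (1145 at an unadjusted p below 0.05), and glucocorticoid-induced calls were 0 in KO against WT, 1 in KO against HxD and 0 in HxD against WT. With no filter on low counts, and with only the 8 libraries compared, glucocorticoid-induced calls were 0 in KO against WT and 1 in KO against HxD and cycling calls 0 in KO against HxD. The fit of 8 libraries called 0 genes in KO against WT (1240 unadjusted). With the replicate number as a block, 5 genes were called in KO against WT, 0 of them glucocorticoid-induced, and 1 clock loop gene and 1 target in KO against HxD, though the numbers did not pair the libraries (r of same-number deviations -0.0708 to 0.0779). Without WT 1, WT 3, HxD 1 and HxD 3, chosen after seeing the data, 4 genes were called in KO against WT and 49 in HxD against WT, glucocorticoid-induced calls were 0 in KO against WT and 1 in KO against HxD, cycling calls 0 in KO against HxD, and Nfil3 had 0.55 in HxD against WT. The causes were not tested. Of the 5 genes most like each member, 2 stayed by Spearman's rho for each, and by deviations from genotype means 3 stayed for Hlf and 0 for Dbp, Tef and Nfil3. At the 88 to 190 counts of Nfil3, counting error at the lowest library of a genotype was 9.09% to 10.7%, below its CV between libraries of 12.8% to 28.0%.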
